A study of Mus musculus with 8 samples.

Results

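The genes described here are 10 noncoding RNAs of mouse B cells, of which 7 are snoRNA host genes (Gas5, Snhg1, Snhg3, Snhg5, Snhg6, Snhg8 and Snhg12) and 3 are other long noncoding RNAs (Neat1, Malat1 and Pvt1). They were taken by symbol from the gene table of the series, and 9 of the 10 symbols were found among its 39017 genes. Snhg8 is not a symbol of that table, so its own level was not analysed here.

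The cells were splenic B cells of C57BL6/J mice, plated on 40LB feeder cells with 1 ng/mL IL-4 and collected at day 4. 40LB cells are fibroblasts that display CD40L and secrete BAFF, and B cells grown on them take on a germinal center-like state (iGBs). Prmt5-null iGBs (Prmt5 F/F Cγ1-cre, n = 4) were compared with control iGBs (Cγ1-cre, n = 4), so both groups carried the Cre allele. Cγ1-cre is switched on from the Ighg1 locus after activation and therefore deletes Prmt5 in B cells during the culture and not in the feeder cells. Prmt5, the enzyme that deposits symmetric dimethylarginine on Sm proteins and histones, had 11774 ± 908 normalized counts in control and 1538 ± 436 in Prmt5-null libraries (SD, n = 4 each). Library totals ranged from 36731721 to 50366174 reads on genes. The fit across all genes called 13.8% of 16250 genes at an adjusted p below 0.05, of which 7.33% were lower and 6.51% higher without Prmt5, and 6.48% were also changed by at least 1.5-fold.

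The second principal component held 25.81% of the variance. It was taken as the first component whose sign put 2 libraries of each genotype on each side. That balance was therefore set by the choice. PRMT5-10771 (score -3.02) and CTRL-10596 (score 5.58) lay closest to the border between the sides. CTRL-10650 and CTRL-10370 and PRMT5-10770 and PRMT5-10771 lay on side A, and CTRL-10596 and CTRL-10597 and PRMT5-10617 and PRMT5-10618 lay on side B. The series design divides the samples, by number, into 2 experiments with 2 samples of each genotype in each. The labels do not carry these numbers. If the numbers follow the order in which the samples are listed, side B is the first experiment and side A the second, but that order was not used to group the libraries. Cell type markers also moved. Of 18 tested fibroblast genes, 6 rose and none fell without Prmt5 (median log2 fold change 0.74), and their summed level ranged from 6622 to 11539.7 normalized counts in control and from 9801 to 19324 in Prmt5-null libraries. None of the 20 fibroblast genes in the table was at 0 in all libraries. B cell genes were abundant in every library (summed level 344931 to 421614 normalized counts). The summed level of 8 T cell genes ranged from 1226 to 1741 normalized counts in control and from 1012 to 1354 in Prmt5-null libraries, nearly all of it from Cd2 and Lck, and 1 of the 8, Cd3e, was listed at 0 throughout. That of 8 myeloid genes ranged from 110 to 218 in control and from 171 to 299 in Prmt5-null libraries, and 2 of the 8, S100a8 and S100a9, were listed at 0 throughout.

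snoRNA host genes are transcribed by RNA polymerase II into spliced RNAs whose exons encode no known protein, while their introns carry snoRNAs, the guides for methylation or pseudouridylation of ribosomal RNA. A spliced intron is trimmed to release the snoRNA, and the exonic RNA is often removed by nonsense-mediated decay. Many host genes begin like ribosomal protein genes, with a tract of pyrimidines at the first base of the RNA (a 5′ TOP tract). Neat1 builds the nuclear bodies called paraspeckles, Malat1 gathers in nuclear speckles beside splicing factors, and Pvt1 lies downstream of Myc.

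The starts of the annotated RNAs are shown because a TOP tract, where a host gene has one, lies there. RefSeq (GRCm38.p6) held a start for 7 of the 10 genes, with 2 starts for Gas5. Each line gives 35 bases before the start and 25 bases from the start on, on the strand of the gene, and the capitals mark the run of C and T that covers the first base of the RNA.
Gas5, upstream start, chr1:161034566-161034625, plus strand: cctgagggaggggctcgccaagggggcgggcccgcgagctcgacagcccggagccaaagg
Gas5, downstream start, chr1:161035131-161035190, plus strand: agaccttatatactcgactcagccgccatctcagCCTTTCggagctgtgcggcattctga
Snhg1, chr19:8723452-8723511, plus strand: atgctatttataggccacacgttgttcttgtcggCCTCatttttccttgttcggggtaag
Snhg3, chr4:132353662-132353721, minus strand: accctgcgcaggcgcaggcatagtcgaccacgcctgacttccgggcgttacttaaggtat
Snhg5, chr9:88522873-88522932, minus strand: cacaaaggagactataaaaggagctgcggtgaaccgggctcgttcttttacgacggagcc
Snhg8, chr3:123508312-123508371, minus strand: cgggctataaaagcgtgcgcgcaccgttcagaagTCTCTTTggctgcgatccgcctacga
Snhg12, chr4:132308643-132308702, plus strand: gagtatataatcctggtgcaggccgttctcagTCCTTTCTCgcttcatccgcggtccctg
Malat1, chr19:5802648-5802707, minus strand: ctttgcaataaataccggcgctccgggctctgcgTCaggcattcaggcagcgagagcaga

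A run of at least 5 C or T bases covered the start in 3 of these 8 entries, those of Snhg8 (7 bases), Snhg12 (9 bases) and the downstream start of Gas5 (6 bases). The same held for 10.1% of all 32851 promoter entries and for 21 of 76 entries of ribosomal protein genes (27.6%). Only the strand of the RNA was searched, and an annotated start can miss the true one by a few bases. The letters TATA, which read the same on both strands, stood between 35 and 21 bases before the start in 4 of the 8 entries and in 4.61% of all entries. These matches are descriptions of the sequence.

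In control iGBs, normalized counts per kilobase of annotated exon, a measure of level, spanned 2 orders of size. Malat1 was highest at 15958 ± 4695 per kilobase (SD, n = 4), followed by Snhg3 at 8949 ± 2078 and Gas5 at 3172 ± 719. Snhg1 had 2579 ± 336, Snhg6 had 1436 ± 123, Snhg5 had 1208 ± 158 and Snhg12 had 677 ± 115 normalized counts per kilobase. Neat1 at 177 ± 124 and Pvt1 at 147 ± 12.4 per kilobase were lowest. Gas5 and Snhg1 overlapped in range over the control libraries, as did Snhg6 and Snhg5, and Neat1 and Pvt1, whereas every other pair of neighbours in this order did not. The place of Snhg3 is uncertain, since 851 of its 986 exonic bases also belong to other annotated genes, among them Rcc1 and snoRNA genes.

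Of the 9 measured genes, 3 passed the test between genotypes, all lower in Prmt5-null iGBs: Snhg1, Gas5 and Snhg5. Over all 16250 genes tested, 13.8% passed and 7.33% passed as lower. In the same 3 genes the libraries of the genotypes did not overlap, which was the case for 19.8% of all genes tested. None reached a 1.5-fold change, also with edgeR and DESeq2, and none passed the test as higher with limma, edgeR or DESeq2, though 1 was higher at an unadjusted p below 0.05. The log2 fold change was negative for 6 genes and positive for 3, with a median of -0.18 against 0.0024 over all genes tested. With the side of the second principal component as a block, 5 of the 9 passed, 4 of them lower (Malat1 besides the first 3) and 1 higher (Snhg6), where 17.0% of all genes passed in that fit. The block was drawn from the same values that were tested, so p-values with it, here and below, can be too small. Without PRMT5-10617, PRMT5-10770, PRMT5-10771 or CTRL-10597, Snhg1 was the 1 gene of the 9 that passed. In bulk RNA, fewer cells of a type and less RNA per cell cannot be told apart.

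**Figure D1:**
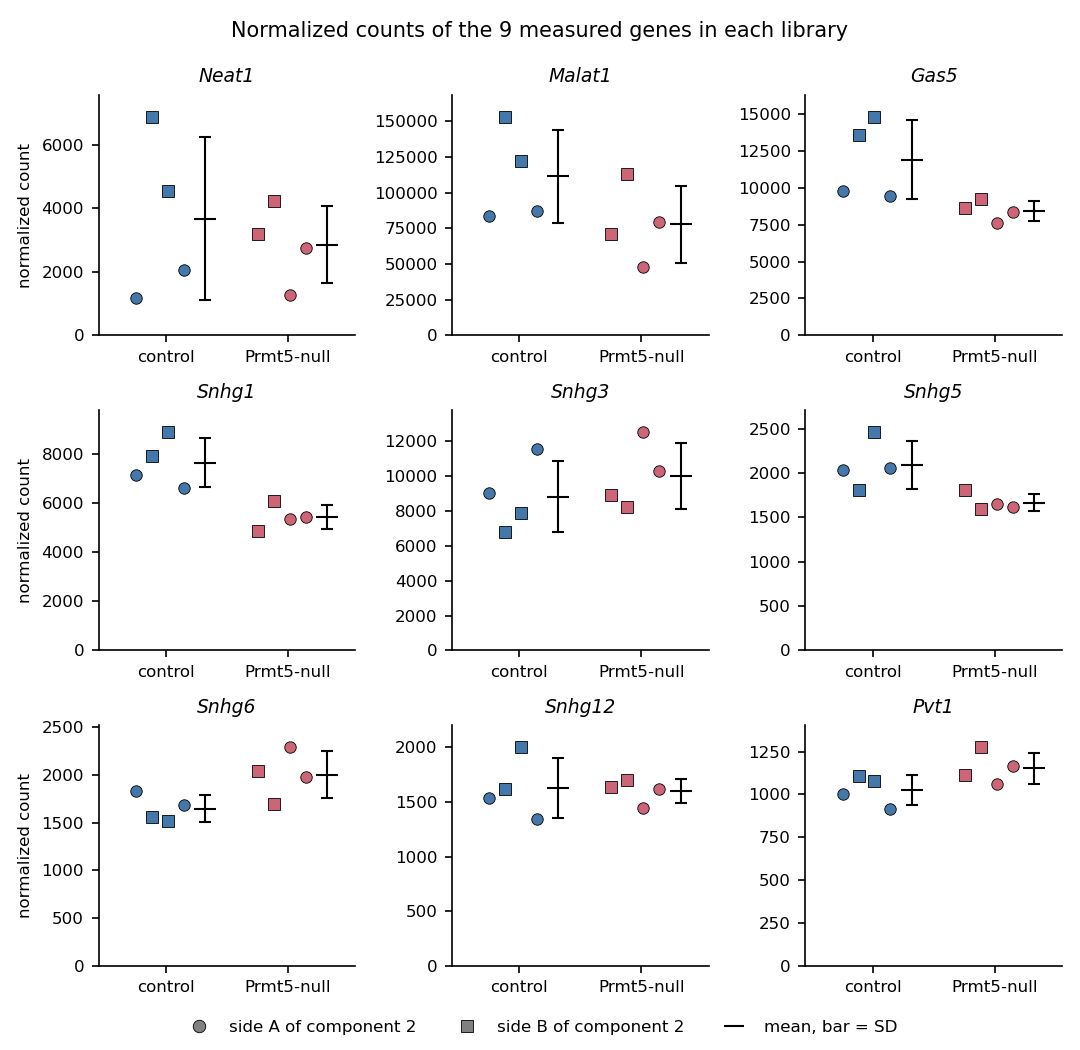
Normalized count (y axis, linear from 0) of each of the 9 measured genes in the 4 control (blue) and 4 Prmt5-null (red) libraries, with circles for side A and squares for side B of the second principal component and a bar for the mean and SD. Prmt5-null libraries lie wholly below control libraries for Gas5, Snhg1 and Snhg5, while the Neat1 values of control libraries run from 1187 to 6894.

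Snhg1 (ENSMUSG00000097188, chr19:8723475-8726443, plus strand, GRCm38), which hosts several box C/D snoRNAs and lies head to head with Slc3a2, had the smallest adjusted p of the group. Its control libraries had 6606, 7171, 7942 and 8904 normalized counts (CTRL-10650 and CTRL-10370, then CTRL-10596 and CTRL-10597), and its Prmt5-null libraries had 4865, 6092, 5351 and 5448 (PRMT5-10617, PRMT5-10618, PRMT5-10770 and PRMT5-10771). Every Prmt5-null library was below every control library. The mean was 7656 ± 996 in control and 5439 ± 504 in Prmt5-null iGBs (SD, n = 4 each), 1.41-fold higher in control. The log2 fold change was -0.49 (SE 0.10; adjusted p = 0.00798, limma over all genes). It remained past the test when any 1 library was left out, with adjusted p up to 0.0302. Within side A the log2 fold change was -0.35 and within side B -0.63. The test of a difference between sides gave an adjusted p of 1.00 for Snhg1 and for each of the other 8 measured genes (limma).

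Gas5 (ENSMUSG00000053332, chr1:161034422-161038539, plus strand), a growth-arrest RNA that accumulates when translation slows, because it is normally degraded while being translated, was lower in Prmt5-null iGBs as well. Control libraries had 9449, 9811, 13604 and 14841 normalized counts, and Prmt5-null libraries had 8629.9, 9244, 7603 and 8380.5, in the same order of mice. The high values of the control group were those of side B, and the closest libraries of the groups were CTRL-10650 and PRMT5-10618. The mean was 11926 ± 2703 in control and 8464 ± 679 in Prmt5-null iGBs (SD, n = 4 each), and the log2 fold change was -0.47 (SE 0.14; adjusted p = 0.0424, limma). Leaving out PRMT5-10617, PRMT5-10770 or PRMT5-10771 or CTRL-10596 or CTRL-10597 ended the call, with log2 fold changes from -0.48 to -0.36 and adjusted p from 0.0713 to 0.123. With the side as a block the adjusted p was 0.00424, and the log2 fold change was -0.27 within side A and -0.67 within side B.

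Snhg5 (ENSMUSG00000097195, chr9:88521050-88522929, minus strand), the host of Snord50a and Snord50b, changed least of the 3. It had 2055, 2031, 1809 and 2464 normalized counts in control and 1806, 1596, 1654 and 1617 in Prmt5-null libraries. The ranges came within a few normalized counts of each other, at 1809 in CTRL-10596 and 1806 in PRMT5-10617. The log2 fold change was -0.32 (SE 0.10; adjusted p = 0.0495, limma), and leaving out any library except CTRL-10596 ended the call, with adjusted p up to 0.128. The exact two-sided permutation test gave p = 0.0286 for Snhg1, Gas5 and Snhg5 each, which is the smallest that 70 assignments of 4 and 4 libraries allow.

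The levels of these 3 genes were also fitted with the mean log2 level of the fibroblast genes as a covariate, since that level differed between genotypes. Their log2 fold changes were then -0.25 for Snhg1 (adjusted p = 0.297), -0.26 for Gas5 (adjusted p = 0.516) and -0.43 for Snhg5 (adjusted p = 0.111), all in limma. In that fit 910 genes in all passed the test in place of 2249. The covariate moves with genotype, so its part in these changes cannot be told apart from that of Prmt5 loss.

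Snhg6 (ENSMUSG00000098234, chr1:9941959-9944118, minus strand), the host of Snord87, had higher values in Prmt5-null libraries. It had 1682, 1829, 1558 and 1514 normalized counts in control and 2039, 1692, 2291 and 1983 in Prmt5-null libraries, and only PRMT5-10618 fell inside the control range. The log2 fold change was 0.28 (SE 0.10; adjusted p = 0.0935, limma), and 0.28 within side A and 0.27 within side B. With the side as a block the adjusted p was 0.0460, and without PRMT5-10618 it was 0.030 (limma). When any other library was left out, the adjusted p ran from 0.0792 to 0.213. With the fibroblast level as a covariate the log2 fold change was 0.13 (adjusted p = 0.695, limma).

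Snhg3 (ENSMUSG00000085241, chr4:132348014-132353686, minus strand), which carries Snora73a and Snora73b, did not pass the test, nor did Snhg12 (ENSMUSG00000086290, chr4:132308623-132311024, plus strand), which carries 4 snoRNAs. Snhg3 had 11578, 9028, 6806 and 7881 normalized counts in control and 8919.6, 8221, 12533 and 10316 in Prmt5-null libraries, a log2 fold change of 0.19 (95% interval -0.16 to 0.54). The Snhg3 values were higher on side A than on side B in both genotypes. They followed those of Snora73a, which has 159 of its 205 bases inside exons of Snhg3. Snora73a had 10995, 8443, 6227 and 7147 normalized counts in control and 7875, 7160, 11723 and 9374 in Prmt5-null libraries. The level of Snhg3, also in the sum below, therefore cannot be told apart from that of this snoRNA. Snhg12 had 1344, 1539.7, 1621 and 2000.2 normalized counts in control and 1639.7, 1703, 1444 and 1622 in Prmt5-null libraries, and its 95% interval of the log2 fold change ran from -0.26 to 0.24. Summed over the 6 measured host genes, the level was 33767 ± 2681 normalized counts in control and 29172 ± 1285 in Prmt5-null libraries (SD, n = 4 each), of which Gas5, Snhg1 and Snhg3 made up most.

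Malat1 (ENSMUSG00000092341, chr19:5795690-5802672, minus strand) was the most abundant of the genes and among the most variable. It had 87002, 83648, 153218 and 121878 normalized counts in control and 70949.8, 112964, 48125 and 79284 in Prmt5-null libraries. Side B was higher on average in both genotypes, by 0.68 on the log2 scale in control and 0.54 in Prmt5-null iGBs. The log2 fold change between genotypes was -0.54 (SE 0.25; adjusted p = 0.169, limma) without and -0.54 (SE 0.17; adjusted p = 0.0472) with the side as a block, and it was -0.47 within side A and -0.61 within side B. With edgeR and the same block the adjusted p was 0.0606, and with the fibroblast level as a covariate the log2 fold change was 0.02 (adjusted p = 0.979). In the fit with no block or covariate, leaving out PRMT5-10618 gave a log2 fold change of -0.74 (adjusted p = 0.0421, limma). When any other library was left out, it ran from -0.66 to -0.33, with adjusted p from 0.134 to 0.389.

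Neat1 (ENSMUSG00000092274, chr19:5824708-5845478, minus strand) differed more between control mice than nearly every other gene with a mean of at least 1000 normalized counts. That set includes far more abundant genes. Control libraries had 2067, 1187, 6894 and 4549 normalized counts and Prmt5-null libraries 3181, 4223, 1266 and 2761. The highest control library was 5.81-fold above the lowest, and the SD of the log2 level over control libraries exceeded that of 99.9% of the 7140 genes with a mean of at least 1000 normalized counts. The same percentile was 99.3 for Malat1, 98.2 for Gas5 and 98.1 for Snhg3, against 58.9 for Snhg6 and 60.4 for Pvt1. The 2 high control libraries of Neat1 were those of side B, which lay above side A by 1.84 on the log2 scale in control and by 0.97 in Prmt5-null iGBs. The genotypes overlapped, and the 95% interval of the log2 fold change, -1.24 to 0.88, covers changes in both directions.

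Pvt1 (ENSMUSG00000097039, chr15:62037986-62378096, plus strand) had 913, 1002, 1109 and 1076 normalized counts in control and 1112, 1275, 1062 and 1165 in Prmt5-null libraries. The groups overlapped at 1062 to 1109, and the log2 fold change was 0.17 (95% interval -0.03 to 0.38; adjusted p = 0.251, limma).

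**Figure D2:**
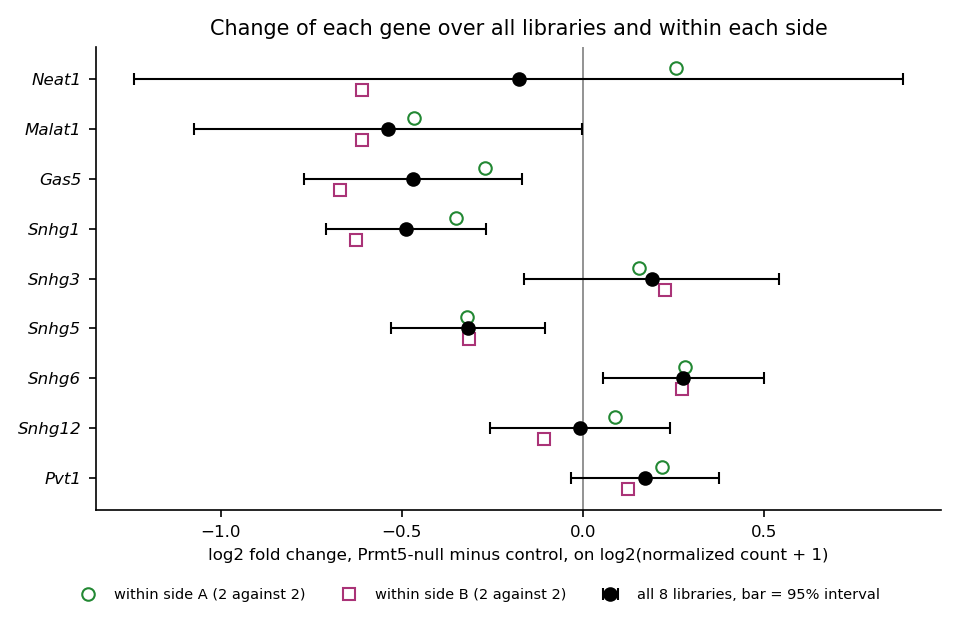
Log2 fold change, Prmt5-null minus control on log2(normalized count + 1), of each measured gene over all 8 libraries (black, with its 95% interval) and within side A (green circles) and side B (purple squares) of the second principal component, each 2 against 2 libraries. Snhg1, Gas5 and Snhg5 are below 0 on both sides, Snhg6 is above 0 on both, and Neat1 and Snhg12 change sign between sides.

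The snoRNA genes inside the host genes were measured as features of their own, and 27 of them had a mean of at least 10 normalized counts. All 17 inside Gas5 and Snhg1 had a negative log2 fold change, and 6 passed the test, against 27 of 238 snoRNA genes outside the listed genes, of which 13 were higher and 14 lower. Their median log2 fold change was -0.63, against -0.08 for the snoRNA genes outside. Of the 10 inside the other listed genes, none passed the test with limma, edgeR or DESeq2, 1 was below an unadjusted p of 0.05, and the median was 0.14. These snoRNAs share their host RNA and are not independent of it. They are shorter than the sequenced fragments, and all 17 lie inside exons of annotated retained-intron forms of the host, so that mature snoRNA and unspliced host RNA cannot be told apart.

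The 6 that passed are shown with their boxes, 4 of them in Gas5 and 2 in Snhg1, though all 17 had a negative log2 fold change. They are read from the annotated transcripts (GRCm38, plus strand), and the capitals mark the first TGATGA (box C, where snoRNP proteins bind) and the last CTGA after it (box D).
Gm26224 in Gas5, chr1:161035394-161035473: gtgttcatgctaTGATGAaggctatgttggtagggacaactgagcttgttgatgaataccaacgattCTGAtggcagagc
Gm23212 in Gas5, chr1:161036682-161036741: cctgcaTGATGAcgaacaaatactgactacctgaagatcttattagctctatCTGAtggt
Snord80 in Gas5, chr1:161037601-161037681: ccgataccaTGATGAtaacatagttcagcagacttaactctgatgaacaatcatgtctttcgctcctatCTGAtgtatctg
Gm25789 in Gas5, chr1:161038308-161038383: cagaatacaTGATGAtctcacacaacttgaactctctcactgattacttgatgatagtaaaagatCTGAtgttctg
Gm25855 in Snhg1, chr19:8723993-8724064: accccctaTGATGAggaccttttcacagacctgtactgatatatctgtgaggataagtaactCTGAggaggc
Gm24452 in Snhg1, chr19:8724531-8724602: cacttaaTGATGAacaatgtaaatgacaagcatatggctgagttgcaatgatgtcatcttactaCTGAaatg

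Both boxes were found by these letters, on the strand of the RNA, in 13 of the 17 snoRNAs of Gas5 and Snhg1 and in 327 of 716 annotated snoRNA transcripts of 60 to 126 bases (45.7%). CTGA can overlap TGATGA, so only a CTGA after the first TGATGA was counted.

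In Gas5, 4 of 9 snoRNAs passed the test, and log2 fold changes ran from -0.95 to -0.43. Gm26224 had 310, 289.8, 452 and 495 normalized counts in control and 207, 194, 209.9 and 203 in Prmt5-null libraries, a log2 fold change of -0.89 (SE 0.17; adjusted p = 0.00580, limma). Gm23212 had 469, 443, 730.2 and 729.9 in control and 341, 339.95, 298 and 293 in Prmt5-null libraries, a log2 fold change of -0.86 (adjusted p = 0.00655). In both, every Prmt5-null library was lower, and the controls of side B stood above those of side A. Snord80 fell by 0.91 and Gm25789 by 0.95 on the log2 scale (adjusted p = 0.0161 and 0.0270, limma), with no overlap between the genotypes in either. Gm22489, Gm22357, Snord78, Mir5117 (a snoRNA gene in the annotation despite its symbol) and Snord47 had values from -0.87 to -0.43 and did not pass.

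In Snhg1, 2 of 8 passed, Gm25855 at -0.64 (SE 0.16; adjusted p = 0.0197) and Gm24452 at -0.47 (SE 0.13; adjusted p = 0.0288, limma), both with no overlap. Gm25894, Gm24453, Gm22744, Gm22680, Gm23246 and Snord22 had log2 fold changes from -0.70 to -0.33 and did not pass. Summed over its 9 snoRNAs, Gas5 had 3213 ± 1089 normalized counts in control and 1921 ± 260 in Prmt5-null libraries, and the 8 of Snhg1 had 2500.04 ± 484 and 1776 ± 180 (SD, n = 4 each). Both sums overlapped between genotypes, with a lowest control value of 2156 and a highest Prmt5-null value of 2186 for Gas5, and of 1908 and 1971 for Snhg1. Without 1 library the count that passed over both hosts ranged from 3 to 9, with 3 when PRMT5-10617, CTRL-10596 or CTRL-10597 was left out, and with the fibroblast level as a covariate none of the 17 passed.

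**Figure D3:**
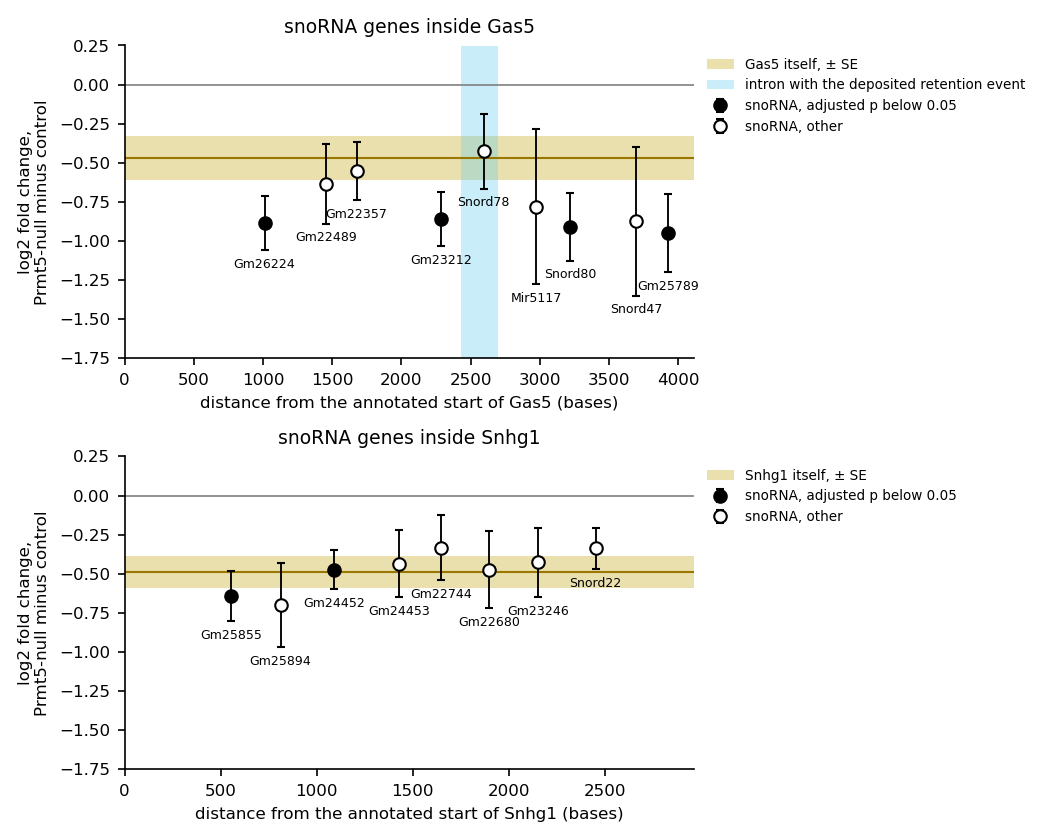
Log2 fold change (Prmt5-null minus control, with SE) of each snoRNA gene against its distance in bases from the annotated start of Gas5 (top) and Snhg1 (bottom), with filled points for an adjusted p below 0.05 and a yellow band for the host itself. All 17 points are below 0, and in Gas5 the snoRNA inside the intron with the deposited retention event (blue), Snord78, has the value nearest 0.

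The snoRNAs of the other hosts did not pass the test and had values of both signs. Snora73a and Snora73b of Snhg3 were abundant, with 8203 ± 2072 and 2988 ± 702 normalized counts in control libraries, and had log2 fold changes of 0.15 and 0.13. Snora44 of Snhg12 was the highest at 0.48 (adjusted p = 0.142, limma), and Snora16a, Snora61 and Snord99 of the same gene had 0.25, 0.16 and 0.0031. Snord50a and Snord50b of Snhg5 had -0.16 and -0.38, and Snord87 of Snhg6 had 0.30. Snora24, the H/ACA snoRNA inside Snhg8 and the only feature of that locus measured (chr3:123507552-123508404, minus strand), had 246 ± 86.2 normalized counts in control and 237 ± 48.3 in Prmt5-null libraries (SD, n = 4 each), a log2 fold change of -0.02 (SE 0.22).

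Splicing was deposited as events that the authors had selected for a difference between genotypes, so their inclusion levels are descriptions, without a test. The lists give 4 values per genotype that name no library. Such an event was present for 3 of the 9 measured genes, Gas5, Pvt1 and Snhg5, and for 11.4% of the 13300 genes with a mean above 50 normalized counts. Together they had 8 events, 4 with a higher and 4 with a lower level without Prmt5, each with at least 20 reads in each library. Gas5 had events of 4 types, and 12 of the 1519 genes with an event had 4 or more types.

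The 4 events of Gas5 cover the same stretch, a 33-base exon, the intron after it and a 41-base exon. They are shown because each of the 4 events uses at least 1 of them (GRCm38, plus strand). Capitals mark the exons in the first and second lines, each followed by 6 bases of intron, and Snord78 in the third.
33-base exon, chr1:161036820-161036858: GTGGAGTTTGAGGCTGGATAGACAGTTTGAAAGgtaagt
41-base exon, chr1:161037124-161037170: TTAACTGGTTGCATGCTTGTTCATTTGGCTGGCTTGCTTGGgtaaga
Intron between them, chr1:161036853-161037123: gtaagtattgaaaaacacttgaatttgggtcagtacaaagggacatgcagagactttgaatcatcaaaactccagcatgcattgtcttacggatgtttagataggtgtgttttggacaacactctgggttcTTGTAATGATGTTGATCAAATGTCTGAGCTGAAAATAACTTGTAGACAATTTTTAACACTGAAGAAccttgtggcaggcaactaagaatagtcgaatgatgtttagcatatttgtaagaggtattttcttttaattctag

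The 41-base exon was included less in Prmt5-null iGBs. Its inclusion levels were 0.419, 0.387, 0.436 and 0.381 in control and 0.190, 0.179, 0.147 and 0.183 in Prmt5-null libraries, on 4635 reads in all. The lists were far apart, with the authors' values averaging 0.406 and 0.175. Where the 33-base and the 41-base exon were scored as alternatives to each other, the level of the 33-base exon was 0.646, 0.642, 0.638 and 0.697 in control and 0.832, 0.835, 0.873 and 0.847 in Prmt5-null libraries.

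The 271-base intron with Snord78 had a higher retention level in Prmt5-null iGBs, scored only against reads that joined the 33-base to the 41-base exon. Its levels were 0.637, 0.584, 0.661 and 0.744 in control and 0.810, 0.821, 0.768 and 0.8 in Prmt5-null libraries, on 10276 reads. The reads that joined the 33-base to the 41-base exon numbered 839 in control and 299 in Prmt5-null over the 4 libraries of each list, and the reads for retention numbered 5241 and 3897. Scored as a choice of the 5′ splice site, the form that runs from the 33-base exon through the intron to the end of the 41-base exon had levels of 0.532, 0.455, 0.579 and 0.603 in control and 0.447, 0.437, 0.301 and 0.416 in Prmt5-null libraries. The competing form there is the one that skips the 41-base exon, and the same skipping reads, 1352 in control and 1601 in Prmt5-null, enter this event and the exon event. On junction reads only, which leave out reads inside the intron body where Snord78 lies, the retention levels ran from 0.545 to 0.713 in control and from 0.736 to 0.794 in Prmt5-null libraries, without overlap.

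In Snhg5, an intron of 331 bases without an annotated snoRNA (chr9:88521976-88522306, minus strand) was the only deposited event. Its first 30 bases are GTgtgtattgaagcctagattttttccctt and its last 30 are catagcatgtcatggtacctctttctgtAG, with the terminal bases in capitals. Retention levels were 0.233, 0.160, 0.253 and 0.35 in control and 0.407, 0.336, 0.358 and 0.316 in Prmt5-null libraries, so the lists overlapped.

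Pvt1 had 3 events, and none of them includes a snoRNA. The level of a 318-base exon (chr15:62107148-62107465) was 1.0, 0.974, 0.923 and 1.0 in control and 0.829, 0.890, 0.713 and 0.829 in Prmt5-null libraries, with 8 skipping reads in control and 57 in Prmt5-null. Against an 82-base exon further downstream it was 0.840, 0.819, 0.822 and 0.814 in control and 0.727, 0.723, 0.632 and 0.676 in Prmt5-null libraries. On junction reads only, the lists of this second event overlapped, from 0.341 to 0.477 in control and from 0.263 to 0.393 in Prmt5-null.

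The last event of Pvt1 is a shift of the 5′ splice site by 4 bases. The end of the longer exon is shown with these 4 bases in capitals (chr15:62242262-62242301, plus strand): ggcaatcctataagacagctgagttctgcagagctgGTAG. The longer form had levels of 0.812, 0.798, 0.785 and 0.805 in control and 0.894, 0.908, 0.917 and 0.910 in Prmt5-null libraries, on 602 reads in all. The letters that are added begin with GT, the bases at the start of the intron of the shorter form.

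**Figure D4:**
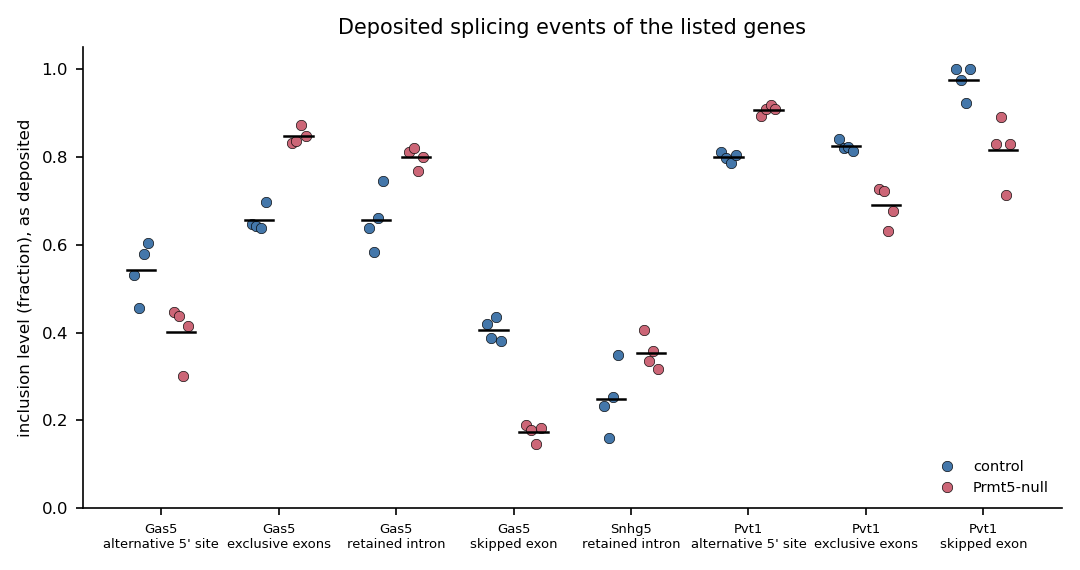
Inclusion level (fraction, as deposited) of the 8 events in Gas5, Snhg5 and Pvt1, with the 4 values of each genotype as points (control blue, Prmt5-null red) and a line at the mean of each list. The lists of the genotypes do not overlap in 7 events and overlap in the Snhg5 intron, where they run from 0.160 to 0.35 and from 0.316 to 0.407.

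Protein-coding genes that overlap a listed gene or lie within 5000 bases of it were read from the same fit. Slc3a2, the heavy chain of amino acid transporters, starts 106 bases from Snhg1 on the other strand and had 3754, 3387, 3132 and 3335 normalized counts in control and 2511, 2367, 2506 and 2639 in Prmt5-null libraries. It was lower in every Prmt5-null library, with a log2 fold change of -0.44 (SE 0.08; adjusted p = 0.00334, limma). Trnau1ap, a selenocysteine tRNA-binding protein that ends 739 bases from Snhg12 on the other strand, had a log2 fold change of -0.50 (adjusted p = 0.00334), where Snhg12 itself had -0.01. Frmd8 beside Neat1 rose by 0.27 on the log2 scale (adjusted p = 0.0314). Zbtb37, which overlaps the start of Gas5 on the other strand, had 0.03, Rcc1 and Phactr4 beside Snhg3 had -0.13 and -0.19, and Mcmdc2, which overlaps Snhg6, had 0.30 on at most 55.1 normalized counts in a library. The adjusted p of these 4 ranged from 0.342 to 0.895 (limma), and Prss12 beside Snhg8 was too low to be tested.

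On a further list, no host gene fell as Gas5 and Snhg1 did in the fit without a covariate. Of 5 tested genes on this list of other Snhg and snoRNA or small RNA host genes, 3 rose and 1, Rnu12, fell. Over all genes tested, 6.51% rose and 7.33% fell. Snhg4 had 466 to 597 normalized counts in control and 1167 to 1368 in Prmt5-null libraries, a log2 fold change of 1.31 (SE 0.10; adjusted p = 2.53e-05, limma). Dancr, the host of Snora26, rose by 0.68 (adjusted p = 0.00592), and Snhg7, named after its value was seen, by 0.34 (adjusted p = 0.0481). Rnu12, which is the U12 RNA of the minor spliceosome and no host gene, fell by 1.43 on the log2 scale (adjusted p = 0.0119). With the fibroblast level as a covariate, Snhg4 still passed, at 1.36 (adjusted p = 0.00194, limma). In that fit Dancr at 0.37, Snhg7 at 0.12 and Rnu12 at -0.81 did not pass (adjusted p = 0.232, 0.678 and 0.338, limma). Of 11 other lncRNAs and abundant noncoding RNAs tested, none passed with limma, edgeR or DESeq2, and 1 was below an unadjusted p of 0.05.

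Ribosomal protein genes and other genes known as TOP mRNAs were taken by symbol and not by their start sequence. Of 86 ribosomal protein genes tested, 6 rose, a share near the 6.51% of all genes that were higher, and none fell. Their log2 fold change was positive in 80 of 86, with a median of 0.22, against 8184 of 16250 for all genes tested. Of 20 other TOP mRNAs, 3 rose and none fell, with a median of 0.21. The largest rises were those of Vim at 0.67 and Eif4b at 0.50, and Vim, an intermediate filament gene, is also abundant in fibroblasts. Eef1g, named after its value was seen, rose by 0.32.

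The mRNAs of proteins that work on these RNAs were read from the same fit, in which 13.8% of all genes passed. Of 18 snoRNP proteins and assembly factors, Nop56, a core protein of box C/D snoRNPs that itself hosts snoRNAs, was the only one past the test, with 11486 to 11909 normalized counts in control and 7685 to 8204 in Prmt5-null libraries (log2 fold change -0.55, adjusted p = 0.000282, limma). Of 14 paraspeckle proteins, 1 passed, Taf15, an RNA-binding protein of the FET family, which fell by 0.87 (adjusted p = 0.000624). Of 10 nonsense-mediated decay factors, 1 passed, Upf3a, which rose by 0.42 (adjusted p = 0.00361). The median log2 fold changes of these 3 lists were -0.01, -0.05 and -0.01. With the side as a block 1, 3 and 2 of their genes passed, where 17.0% of all genes did. With DESeq2 2, 3 and 2 passed.

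On the marker lists, Col3a1 at 1.02 and Col5a2 at 0.88 led the 6 fibroblast genes that rose, both of them collagens of the extracellular matrix. Of 10 B cell genes, Cd79a, the signaling chain of the B cell receptor, fell by 0.74 and Fas rose by 0.47, and 8 did not pass. Of 3 T cell genes tested, Lck fell by 0.94, and of 3 myeloid genes, Emr1 rose by 0.70. The part of the fibroblast RNA in the lower levels of Gas5, Snhg1 and Snhg5 was not tested beyond the fit with the covariate.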

How the data were processed

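RNA-seq libraries of rRNA-depleted total RNA came from 4 Prmt5-null and 4 control mice. The authors trimmed reads with Trimmomatic 0.32, aligned them to mm10 (GRCm38) with STAR 2.3.0e and used featureCounts 1.4.4 for uniquely mapping reads within Ensembl exons. The authors deposited a normalized signal per gene, each count divided by a DESeq2 (1.14.1) size factor. All values were whole reads within 0.1 of a read. Whether a read over overlapping genes was counted is not given in the sources used here, nor is the strand setting, so overlapping genes, snoRNAs within hosts included, are uncertain. The authors' rMATS lists hold inclusion levels (fractions) and read counts. Their p-values, FDR values and differences were not used.

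Genotypes were compared with limma 3.58.1 in R 4.3.3 (lmFit, eBayes with trend). Values were log2(normalized count + 1) of genes with a mean of at least 10, with Benjamini-Hochberg adjustment over all 16250 genes. A gene rose or fell where its adjusted p was below 0.05. Log2 fold changes are on that scale. Alternatives changed the pseudocount, filter, normalization, trend, tool (edgeR 4.0.16, DESeq2 1.42.0), libraries and covariates. The limma, edgeR and DESeq2 fits were also run on simulated independent counts. Those counts held no sides and no fibroblast RNA, so that run does not bear on the calls made here. Annotation and transcripts were GENCODE M21. In the deposited table Snhg1 has an older Ensembl identifier than in that annotation and was matched by symbol. All listed genes, snoRNAs within them, neighbours (except 1 that is not reported here) and events are named, with at most 2 rises and 2 falls per list, besides genes said to be named after their values were seen. The genes and lists were chosen with earlier results of these data known. Permutation tests were exact and two-sided. Tables were made in Python 3.11.15 with pandas 2.3.3 and NumPy 2.4.6.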

Additional observations from a re-analysis of the deposited data

Results flagged for a closer look

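Among 72 groups of 4 libraries, formed by the listed genes and the snoRNAs within them in each genotype, 1 held a library that stood apart by Dixon's test. It was Snora61, an H/ACA snoRNA of Snhg12, with 237 normalized counts in CTRL-10597, and its gap to the next library was 0.846 of the range. Chance gives about 1 such group in 20.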

How the results depend on the processing

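The number of listed genes past the test was 3 and became 1 with quantile normalization or without a trend, where Snhg1 alone remained, 0 with the fibroblast level as a covariate and 5 with the side of the second principal component as a block. Without 1 library it ranged from 1 to 4. The snoRNAs of Gas5 and Snhg1 past the test numbered 6, 0 with the fibroblast covariate and from 3 to 9 without 1 library. All genes past the test numbered 2249, 910 with that covariate and from 1371 to 2369 without 1 library, lowest without PRMT5-10771. Listed genes with no overlap numbered 3, and from 3 to 5 without 1 library, most without PRMT5-10618, an alternative chosen after seeing the data, as were edgeR with the side as a block and the changes within sides. Direction turned for Neat1, to a log2 fold change of 0.41 with the fibroblast covariate and 0.17, 0.23 and 0.03 without PRMT5-10770, CTRL-10596 and CTRL-10597. It turned for Malat1 to 0.0235 and for Snhg3 to -0.14 with that covariate, and for Snhg12 to 0.0058 with quantile normalization, 0.15 with the covariate, 0.04 without PRMT5-10770 and 0.10 without CTRL-10597. Without 1 library the log2 fold change ran from -0.62 to 0.23 for Neat1 and from -0.10 to 0.10 for Snhg12. Snhg1 kept its call in 19 of 20 alternatives, Gas5 in 12 and Snhg5 in 8. No paired analysis was possible because the mouse numbers of the genotypes are not shared. With 4 libraries per genotype, changes the size of that of Neat1 were not detectable at its spread.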
